A study of Mus musculus with 531 samples.

Results

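Expression of 9 genes of the immunoproteasome and the MHC class I pathway was described in single cells of mouse embryos at 3 stages, from embryonic day (E) 4.5 to E6.5. The genes were Psmb8, Psmb9, Psmb10, Psme1, Psme2, Tap1, H2-K1, H2-D1 and B2m, taken by symbol from the 22084 genes counted, and all 9 were found. They had been picked for how they vary with stage, embryo and lineage in these same cells, so those differences are given as a description without a test. No read of Psmb8 was counted in any of 75 cells at E4.5, whereas 33 of 51 epiblast-like cells at E5.5 held at least 1. Psmb10, Psme1 and Psme2 were higher in epiblast-like than in endoderm-like cells in 5 of 5 embryos at E4.5, and H2-K1 was lower in the same cells in 5 of 5. B2m was lower in them in 5 of 5 embryos by its mean log2 level and in 4 of 5 by its summed level. At E6.5, Psmb10, Psme1, Psme2, H2-K1 and B2m were each read in more than 80% of cells in both embryos, and Psmb9 and Tap1 were at or close to 0 in most cells at every stage.

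The proteasome is the protease that degrades ubiquitinated proteins, and its barrel-shaped 20S core holds a trio of catalytic subunits, which are encoded by Psmb5, Psmb6 and Psmb7 in most cells. In immune cells, and in other cells exposed to interferon, newly made cores instead take up the inducible subunits Psmb8 in place of Psmb5, Psmb9 in place of Psmb6 and Psmb10 in place of Psmb7. Psme1 and Psme2 encode the alpha and beta subunits of PA28, a ring that caps and activates the core. Tap1 forms with Tap2 the transporter that moves the resulting peptides into the endoplasmic reticulum, where they are bound by a class I heavy chain, here H2-K1 or H2-D1, paired with the light chain B2m. Class I surface levels are known to be low in the early embryo and in pluripotent cells.

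The cells were processed by scM&T sequencing, in which the DNA and the RNA of the same cell are separated and sequenced in parallel, and the RNA libraries were made by Smart-seq2, which covers whole transcripts without molecular identifiers. All embryos were C57Bl/6Babr and untreated, and differed in stage. The labels placed 91 RNA libraries in 5 E4.5 embryos, 80 in a single E5.5 embryo and 93 in 2 E6.5 embryos, each library being 1 cell. The DNA methylation of these cells was not analysed here. At E4.5 the trophectoderm had been removed by immunosurgery, at E5.5 the visceral endoderm and extraembryonic ectoderm had been pulled from the epiblast, and at E6.5 the embryos had been dissected from decidua and extraembryonic tissue taken off by hand. Cells were then picked by pipette, and no doublets were called. The paper counts 4 embryos at E4.5, where the labels number 5.

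Cells with at least 50000 counts and 2000 detected genes were kept, leaving 217 of 264, of which 75 came from E4.5 embryos, 59 from the E5.5 embryo and 83 from E6.5 embryos. Kept cells held between 112008 and 8904445 counts, and the stage medians were 918469, 1511811 and 1107378 in order of age. The medians of genes detected per cell were 6985, 5242 and 9304 in the same order, and so did not follow depth. Levels are given as log2(CPM + 1) averaged over the cells of an embryo, where CPM is the count scaled to a total of 1000000 in the cell, or as CPM of counts summed over cells. The embryo is the replicate, and the cells of an embryo are not. No prefix in the labels was shared between stages, so stage and any batch that follows the prefix cannot be told apart. At E4.5 embryos 1 and 2 carried 1 prefix and embryos 3 to 5 another. Intervals for shares of cells are exact (Clopper-Pearson) at 95% and, because reads are not molecules, cover counting error only.

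Lineages were rebuilt from the counts. At E4.5 clustering gave 50 endoderm-like cells, in which 11 of 13 endoderm markers were raised, and 25 epiblast-like cells, in which 8 of 9 epiblast markers were raised. At E5.5 a gate on Amn, Apoa1, Cubn and Dab2, which are made in visceral endoderm, set 8 endoderm-like cells apart from 51 epiblast-like cells. At E6.5 clustering gave 15 endoderm-like cells, 23 mesoderm-like cells that all came from embryo 2, and 45 cells that met no marker list and stay unnamed. The endoderm-like cells raised 13 of 13 endoderm but also 5 of 8 trophectoderm markers, and the mesoderm-like cells raised 8 of 8 mesoderm but also 6 of 9 epiblast and 5 of 13 endoderm markers, so the E6.5 names are less distinct than those of E4.5. Lineage followed the numbering of cells at the later stages. All 8 endoderm-like cells at E5.5 carried numbers that are multiples of 12, and no kept epiblast-like cell did, so lineage and position in the numbering (each run of 12 cell numbers) cannot be told apart at that stage. The mesoderm-like cells likewise fell in positions 10 to 12 of each run of 12 numbers, and the unnamed cells of that embryo in positions 6 to 8. At E4.5 both lineages of each embryo shared positions.

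The 5 genes on chromosome 17 lie in the mouse major histocompatibility complex. On GRCm38 with GENCODE M21 annotation, H2-K1 (ENSMUSG00000061232) spans chr17:33996017-34000347 on the minus strand and H2-D1 (ENSMUSG00000073411) chr17:35262730-35267499 on the plus strand. Between them lie Psmb9 (ENSMUSG00000096727) at chr17:34181987-34187764 on the minus strand, Tap1 (ENSMUSG00000037321) at chr17:34187553-34197225 on the plus strand and Psmb8 (ENSMUSG00000024338) at chr17:34197721-34201454 on the plus strand. Psme1 (ENSMUSG00000022216) at chr14:55578123-55581529 and Psme2 (ENSMUSG00000079197) at chr14:55587441-55591113 are neighbours on opposite strands. Psmb10 (ENSMUSG00000031897) lies apart at chr8:105935735-105938444 on the minus strand, and B2m (ENSMUSG00000060802) at chr2:122147686-122153083 on the plus strand. The annotated spans of Psmb9 and Tap1 overlap by 212 bases, and Smart-seq2 reads carry no strand, so reads in that overlap cannot be assigned to 1 of the genes.

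Promoter stretches are shown so that the starts of the genes can be compared letter by letter, since Psmb10 and PA28 were higher in epiblast-like cells at E4.5 and H2-K1 was lower in them. The sequences are from RefSeq on GRCm38.p6 (250 bases before each annotated start), which held an entry for all 9 genes, and each stretch is printed 5′ to 3′ on the strand of the gene, with the matched motif in capitals. Stretches of 110 bases are given for B2m, H2-K1 and Psme2, and of 30 bases for the others, whose stretch lies in a 5′ UTR that GENCODE M21 annotates for a longer transcript (of the gene itself for H2-D1, Psmb8 and Psme1, and of Psmb9 for Tap1). Of the genes with more than 1 entry, Psme2 and H2-K1 have 2 each, and 1 is printed. The first line holds a match to the core of the interferon-stimulated response element, GAAA and, after 2 bases of any kind, GAAA again. The class I heavy chain pair holds the palindromic kappaB site, whose 11 letters are the capitals, Psmb8 holds TTCNNNGAA, the core of the gamma-activated site, and the last group holds GGGCGG, the GC box, or its complement.
B2m, chr2:122147498-122147607, plus strand: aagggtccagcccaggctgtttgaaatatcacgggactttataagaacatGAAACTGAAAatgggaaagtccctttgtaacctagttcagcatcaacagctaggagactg
H2-K1, chr17:34000399-34000508, minus strand: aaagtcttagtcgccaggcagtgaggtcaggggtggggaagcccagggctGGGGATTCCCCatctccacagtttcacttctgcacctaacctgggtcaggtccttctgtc
H2-D1, chr17:35262913-35262942, plus strand: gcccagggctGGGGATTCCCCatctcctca
Psmb8, chr17:34198087-34198116, plus strand: gtcctccgctgTTCCCAGAAgatgcccccc
Psme1, chr14:55578373-55578402, plus strand: gacccgagcgccGGGCGGaaacgctactcc
Psme2, chr14:55591111-55591220, minus strand: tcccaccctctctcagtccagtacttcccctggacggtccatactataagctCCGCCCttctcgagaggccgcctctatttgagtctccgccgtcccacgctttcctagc
Tap1, chr17:34187368-34187397, plus strand: cagactgaggccCCGCCCcatcatcgcgca

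Both strands were searched, and no match of 1 motif overlapped that of another in these genes. Among the 250-base windows of 32851 RefSeq entries, the response element core was found in 2.98%, the kappaB site in 0.0304%, TTCNNNGAA in 7.02% and GGGCGG in 32.7%. Centred on the kappaB site, 110 bases of H2-K1 and H2-D1 are identical at 105 positions. The kappaB site of H2-K1 begins 111 bases before 1 of its annotated starts and that of H2-D1 171 bases before its start. The response element of B2m begins 139 bases before its start, and the match in Psmb8 97 bases before. The starts of Tap1 and Psmb9 point away from each other with 225 bases between them, so that the printed Tap1 stretch lies in the shared interval, and the same GC box is counted in both windows. The Psmb10 window held none of the 4 motifs. A match is a string of letters and was not tested for binding.

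Among the catalytic subunits, Psmb8 was the gene most unequally read between stages. Its mean level was 0 in each of the 5 embryos at E4.5, 3.64 in the E5.5 embryo, and 1.58 and 0.81 in embryos 1 and 2 at E6.5. The stages did not overlap, and E5.5 was highest. The count of 0 in 75 cells at E4.5 allows up to 4% of cells with a read by the limit of 3 counts (exact upper limit 4.80%), and 0 reads in the summed counts allow up to 0.0373 CPM. At E5.5 the summed level was 141 CPM in all kept cells, and 107 CPM without 1 epiblast-like cell that held 27% of the reads. In the epiblast-like cells there it was 169 CPM, at least 1162-fold higher than the limit of 3 counts in the E4.5 epiblast-like cells, and in single cells it ranged from 0 to 1162 CPM. A read was found in 64.7% of epiblast-like cells (interval 50.1% to 77.6%) and in 0 of 8 endoderm-like cells (upper limit 36.9%). Across the 9 such positions that held epiblast-like cells at E5.5, the mean level of Psmb8 lay between 1.42 and 7.04. At E6.5, 36.1% of cells in embryo 1 and 29.8% in embryo 2 held a read, and the summed levels were 28 and 2.29 CPM. In embryo 1, 1 unnamed cell held 74.1% of the reads of Psmb8 (1564 of 2112), and without it the summed level was 7.82 CPM. In embryo 2, 1 unnamed cell held 33.1% of them, and without it the summed level was 1.58 CPM. When each cell was thinned to 50000 counts the shares were 49.2% at E5.5, and 22.2% and 4.26% in the E6.5 embryos.

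Psmb10 was read at every stage. Its mean level over all kept cells was 4.64, 6.14, 3.42, 4.20 and 4.0 in E4.5 embryos 1 to 5, 7.63 at E5.5, and 7.46 and 6.65 in the E6.5 embryos. Over all kept cells the lowest later embryo was above the highest at E4.5. Of the E4.5 cells, 50 of 75 were endoderm-like. In the E4.5 epiblast-like cells alone the level was 5.38 to 7.73 over the embryos, which overlapped the E6.5 embryos. The summed levels of 503 CPM at E5.5 and of 325 and 275 CPM at E6.5 compare with 50.8 to 141 CPM at E4.5. The share of cells with a read was 73.3%, 89.8% and 98.8% in order of stage. Every cell with a read of Psmb8 also held one of Psmb10, 33 of 33 at E5.5 and 27 of 27 at E6.5.

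Psmb9 stayed low on the mean log2 scale. Its mean levels at E4.5 were 0, 1.78, 0, 0.63 and 0.24, at E5.5 0.68, and at E6.5 0.45 and 0.11. The summed levels were 0 to 16.6 CPM at E4.5, 13.3 CPM at E5.5, and 0.69 and 0.22 CPM at E6.5. The stages overlapped, and a read was found in 10.7%, 10.2% and 9.64% of cells in order of stage. The highest embryo was embryo 2 at E4.5, with reads in 37.5% of its 8 cells.

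**Figure D1:**
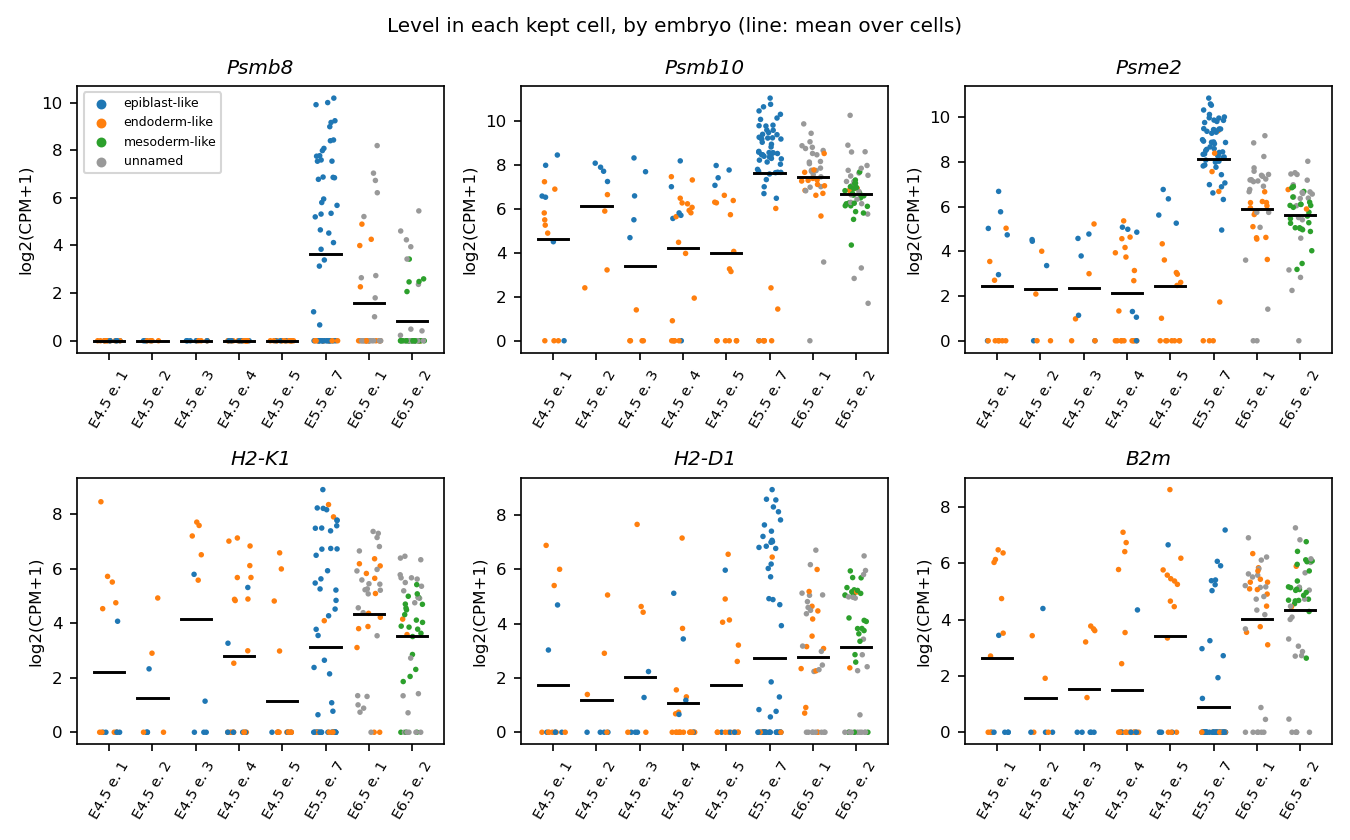
Level of Psmb8, Psmb10, Psme2, H2-K1, H2-D1 and B2m in each of the 217 kept cells, on the log2(CPM + 1) axis and grouped by embryo (e.) on the horizontal axis. Points are cells coloured by lineage and the black line is the mean over the cells of the embryo; Psmb8 lies at 0 in all E4.5 cells and reaches above 10 in the E5.5 embryo.

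The share of each inducible subunit in the sum with its constitutive counterpart was computed per kilobase of annotated exon, because the genes differ in length. The length is that of all annotated exons of a gene together, 1705 bases for Psmb10 and 3421 for Psmb7, and not of the transcripts expressed. For Psmb10 against Psmb7 this share was 41%, 46.1%, 35.3%, 24.3% and 26.3% in the E4.5 embryos, 72.1% at E5.5, and 61.2% and 65.2% at E6.5. Over all kept cells Psmb10 messages were thus below those of Psmb7 per kilobase in each E4.5 embryo and above them in each later one. The order at E6.5 rests on this length. By plain summed CPM Psmb10 was above Psmb7 in the E5.5 embryo (503 against 391 CPM) but below it in both E6.5 embryos. By lineage, the share at E4.5 was 27.8% to 51.8% in epiblast-like and 0.293% to 45.9% in endoderm-like cells. At E5.5 it was 74% in epiblast-like and 11.2% in endoderm-like cells. At E6.5 it was 64.3% and 73.1% in the unnamed cells of embryos 1 and 2, 45.8% and 37.4% in their endoderm-like cells (13 and 2 cells), and 32.3% in mesoderm-like cells. With lineages set by Ward clustering on markers it was 62.5% in 25 epiblast-like, 67.6% in 25 endoderm-like and 32.4% in 24 mesoderm-like cells, so the side of the endoderm-like cells turned with the clustering. For Psmb8 against Psmb5 the share was 0 in each E4.5 embryo, 4.42% in the E5.5 embryo, and 1.10% and 0.0754% in those of E6.5. For Psmb9 against Psmb6 it did not exceed 0.847% in any embryo. The 3 constitutive genes were read at high levels throughout. Psmb5 had a mean level of 9.25 ± 0.50 (SD, n = 5 embryos) at E4.5, 9.48 at E5.5 and 9.14 ± 0.14 (n = 2) at E6.5. For Psmb6 the values were 9.53 ± 0.51, 10.4 and 9.51 ± 0.12, and for Psmb7 7.87 ± 0.42, 8.34 and 7.91 ± 0.29. In edgeR's quasi-likelihood test on counts summed over all kept cells of each embryo, none of the 3 passed the threshold of 0.05 between E6.5 and E4.5, with log2 fold changes of 0.18 (SE 0.27) for Psmb5, 0.30 (SE 0.27) for Psmb6 and 0.39 (SE 0.31) for Psmb7 and adjusted p = 0.749, 0.550 and 0.501.

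**Figure D2:**
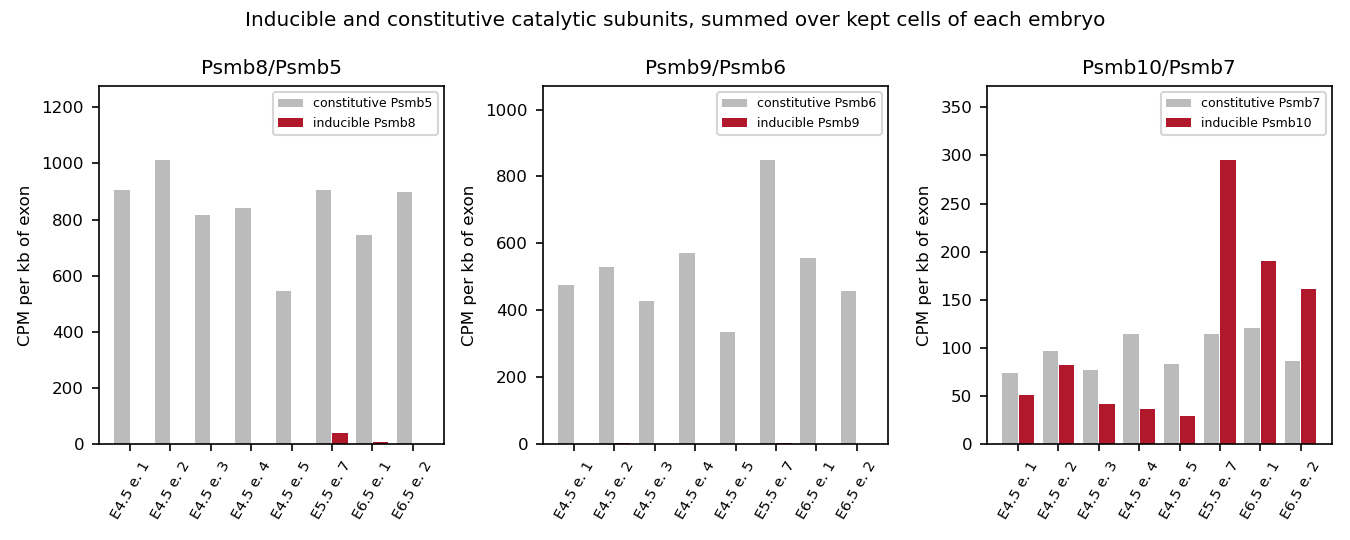
Summed level of each inducible subunit (red) beside its constitutive counterpart (grey) in CPM per kilobase of exon, with 1 pair of bars per embryo (e.) and axes that begin at 0. Over all kept cells Psmb10 exceeds Psmb7 per kilobase in the E5.5 embryo and both E6.5 embryos only, while Psmb8 and Psmb9 stay under 5% of their pairs.

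The PA28 genes Psme1 and Psme2 were higher at the later stages. Mean levels of Psme1 were 1.87, 2.64, 1.65, 2.26 and 2.46 at E4.5, 5.52 at E5.5, and 5.26 and 5.62 at E6.5. Those of Psme2 were 2.43, 2.30, 2.35, 2.12 and 2.45 at E4.5, 8.12 at E5.5, and 5.91 and 5.62 at E6.5. Over all kept cells every later embryo was above every E4.5 embryo for both genes, and the difference E6.5 minus E4.5 was 3.26 for Psme1 (SD over E4.5 embryos 0.41) and 3.43 for Psme2 (SD 0.13). The makeup of the cells differed between these stages. In E4.5 epiblast-like cells alone Psme1 was at 2.58 to 5.51 and Psme2 at 2.86 to 6.00, which overlapped the E6.5 embryos. Psme2 summed to 561 CPM at E5.5, against 8.68 to 19.996 CPM at E4.5 and 110 and 89.9 CPM at E6.5. Psme2 has a near-identical retrogene copy, Psme2b, between which the counting could split reads. Psme2b stood at 6.03 to 13.7 CPM at E4.5, 194 CPM at E5.5, and 43.8 and 45.3 CPM at E6.5, so it was high in the same embryos, and levels of Psme2 are uncertain to that extent.

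Tap1 was read in few cells. Its mean levels were 0.37, 0.48, 0, 0 and 0 at E4.5, 0.28 at E5.5, and 0.78 and 0.06 at E6.5, and the stages overlapped. The summed levels of Tap1 were 0 to 2.45 CPM at E4.5, 1.90 CPM at E5.5, and 10.5 and 0.0474 CPM in E6.5 embryos 1 and 2. Reads were found in 2.67%, 5.08% and 10.8% of cells in order of stage, and at E6.5 in 22.2% of the cells of embryo 1 and 2.13% of those of embryo 2. The partner Tap2 was at 0 in all 5 E4.5 embryos and at 2.38 CPM at E5.5, and it stood at 0.0530 and 0.142 CPM at E6.5. Its difference between E6.5 and E4.5 did not pass (edgeR adjusted p = 0.293).

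The class I chains did not share 1 order of the stages on the mean log2 scale. H2-K1 had mean levels of 2.20, 1.27, 4.15, 2.80 and 1.13 at E4.5, 3.12 at E5.5, and 4.35 and 3.52 at E6.5. E4.5 embryo 3 lay within the E6.5 range. H2-D1 had 1.73, 1.17, 2.02, 1.07 and 1.75 at E4.5, 2.75 at E5.5, and 2.78 and 3.13 at E6.5. On this mean log2 scale its E4.5 and later embryos did not overlap, but the summed levels of 4.73 to 23.5 CPM at E4.5 overlapped those of 15.9 and 13 CPM at E6.5. H2-K1 and H2-D1 are close paralogs, whose reads the counting could split or drop, so each level is uncertain. B2m had 2.63, 1.22, 1.55, 1.51 and 3.41 at E4.5, 0.89 at E5.5, and 4.01 and 4.34 at E6.5. The E5.5 embryo was thus the lowest for B2m on the mean log2 scale, but its summed level of 7.20 CPM lay within the 3.68 to 49.5 CPM of the E4.5 embryos. The makeup differed too, with 50 of 75 cells endoderm-like at E4.5 and 8 of 59 at E5.5, and in epiblast-like cells alone B2m at E5.5 lay within the spread of E4.5 on both scales (mean log2 1.03 against 0.81 ± 0.62, and summed 8.62 against 10.005 ± 17.1 CPM, SD, n = 5). Summed B2m at E6.5, 23.4 and 33.2 CPM, also lay within the E4.5 range. B2m was read in 45.3%, 20.3% and 86.7% of cells in order of stage. Thinned to 50000 counts per cell, the share with B2m was 20.8% to 44.4% over the E4.5 embryos, 10.2% at E5.5, and 55.6% and 66% at E6.5.

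Levels can be ordered within a stage per kilobase of exon. At E4.5, Psmb10 stood highest at 48.5 ± 20.7 CPM per kilobase (SD, n = 5 embryos), then B2m at 23.6 ± 22.1, H2-K1 at 8.99 ± 8.18, Psme2 at 7.30 ± 2.80, Psme1 at 6.95 ± 2.20 and H2-D1 at 5.15 ± 3.00. From B2m down, neighbours in this order differed by less than the larger of their SDs. At E5.5 the order was Psme2 at 318, Psmb10 at 295, Psme1 at 44.2, Psmb8 at 41.8, H2-D1 at 27.8, H2-K1 at 19.3 and B2m at 8.37 CPM per kilobase, from 1 embryo. At E6.5 Psmb10 stood at 176 ± 20.7 (SD, n = 2), Psme2 at 56.6 ± 8.05, Psme1 at 44.6 ± 2.44, B2m at 32.9 ± 8.04, H2-K1 at 10.4 ± 3.16, H2-D1 at 5.6 ± 0.79 and Psmb8 at 4.48 ± 5.38. Neighbours in this order differed by more than the larger SD down to H2-D1, while H2-D1 and Psmb8 differed by less. Over all kept cells, whose makeup differed between stages, Psmb10 was thus among the first 2 at each stage, and the stage means of Psmb9 and Tap1 did not exceed 3.64 CPM per kilobase. In the 8 endoderm-like cells at E5.5 Psmb10 stood at 8.51 CPM per kilobase, below Psme2 at 114, H2-K1 at 26.4 and Psme1 at 16.2.

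Over all kept cells, 6 of the 9 genes (Psmb8, Psmb10, Psme1, Psme2, H2-D1 and B2m) had both E6.5 embryos above every E4.5 embryo on the mean log2 scale. Across the 15358 genes tested, 29% showed that order and 7.05% the opposite one. By summed CPM the order held for 4 of the 9 (Psmb8, Psmb10, Psme1 and Psme2), against 15.4% of all genes and 11.7% in the opposite order, and H2-D1 and B2m overlapped. Each count is a description, since the genes were chosen on this contrast. Leaving out 9 E6.5 cells that expressed low levels of most genes and were led by Gm10800, the differences E6.5 minus E4.5 were 2.88 in place of 2.58 for Psmb10, 2.04 in place of 1.63 for H2-K1 and 2.53 in place of 2.11 for B2m.

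Transcripts of other tissues were present at E6.5. The sum of 7 decidual stroma genes, led by Prl8a2, was 55.9 and 45.8 CPM in the E6.5 embryos and 0 to 5.55 CPM at E4.5, and 94.4% and 72.3% of E6.5 cells held a read of 1 of them. The sum of 5 erythroid genes was 72.3 and 46.8 CPM against 0 to 5.79 CPM at E4.5. A list of 12 leukocyte and class II genes stood at 14.5 and 31.1 CPM against 18.8 to 72.9 CPM at E4.5, and its member Ptprc, which marks leukocytes, was at 0 at E4.5, at E5.5 and in E6.5 embryo 1. Trophectoderm markers summed to 207 and 193 CPM against 40.4 to 163 CPM. Under 10 CPM of decidual, erythroid and leukocyte genes together was found in 5 E6.5 cells, of which 3 were among the 9 cells led by Gm10800 and had only 2098, 2546 and 5222 genes detected. The other two, 1 in each embryo, had 9443 and 9173 genes detected, too few cells for a comparison, and no level of the 9 genes is given for the 5. The part of these transcripts in the E6.5 levels was not tested.

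**Figure D3:**
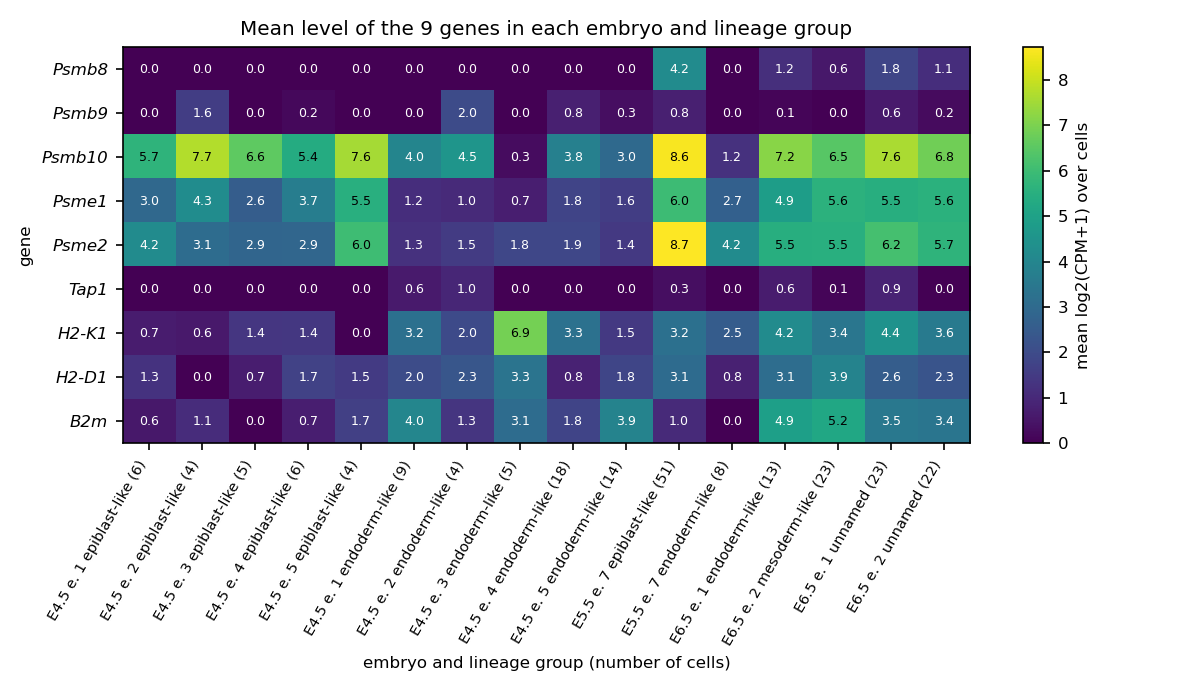
Mean log2(CPM + 1) over cells of the 9 genes (rows) in the 16 embryo and lineage groups with at least 3 cells (columns, e. for embryo, number of cells in brackets), with colour and printed value giving the same mean. Psmb10, Psme1 and Psme2 are brightest in epiblast-like cells at E5.5, and H2-K1 is brightest in endoderm-like cells of E4.5 embryo 3 (6.91).

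Within E4.5 embryos, the comparison of lineages is free of stage and label prefix. Psmb10 was at 5.67, 7.73, 6.56, 5.38 and 7.56 in the epiblast-like cells of embryos 1 to 5 and at 3.96, 4.54, 0.28, 3.81 and 2.98 in their endoderm-like cells. Psme1 was at 2.96, 4.26, 2.58, 3.69 and 5.51 in epiblast-like cells and at 1.15, 1.03, 0.73, 1.79 and 1.59 in endoderm-like cells. Psme2 was at 4.20, 3.09, 2.86, 2.88 and 6.00 against 1.25, 1.52, 1.84, 1.87 and 1.43. For these 3 genes the lineages did not overlap, and the mean difference endoderm-like minus epiblast-like was -3.47 ± 1.99 for Psmb10, -2.54 ± 0.98 for Psme1 and -2.22 ± 1.53 for Psme2 (SD over 5 embryos).

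The class I chains were placed the other way. H2-K1 was at 0.68, 0.58, 1.39, 1.43 and 0.00 in epiblast-like cells and at 3.22, 1.96, 6.91, 3.25 and 1.45 in endoderm-like cells. B2m was at 0.57, 1.10, 0.00, 0.72 and 1.66 against 4.0, 1.34, 3.10, 1.78 and 3.91. H2-D1 was at 1.29, 0.00, 0.70, 1.73 and 1.49 against 2.03, 2.34, 3.34, 0.85 and 1.82, and was lower in the endoderm-like cells of embryo 4. Over the embryos the lineages came close for H2-K1 (1.43 against 1.45) and overlapped for B2m and H2-D1. By summed CPM, H2-K1 was still higher in the endoderm-like cells of each embryo, at 6.87 to 126 against 0 to 9.16 CPM, and the ranges overlapped. B2m in embryo 2 turned, with 2.29 CPM in endoderm-like and 4.87 CPM in epiblast-like cells, and H2-D1 was at 7.39 against 6.76 CPM in embryo 4 and at 12.6 against 12.9 CPM in embryo 5. The mean difference was 2.54 ± 1.73 for H2-K1, 2.01 ± 1.35 for B2m and 1.03 ± 1.46 for H2-D1, the last within its spread. On the mean log2 scale, endoderm-like cells were above epiblast-like cells in every embryo for 2 of the 9 genes and under them for 3, against 16.9% and 12.1% of the 9437 genes tested. By summed CPM the counts were 1 and 3, against 17.5% and 10.5%. Nothing is read from these shares, since the genes were chosen on this contrast.

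**Figure D4:**
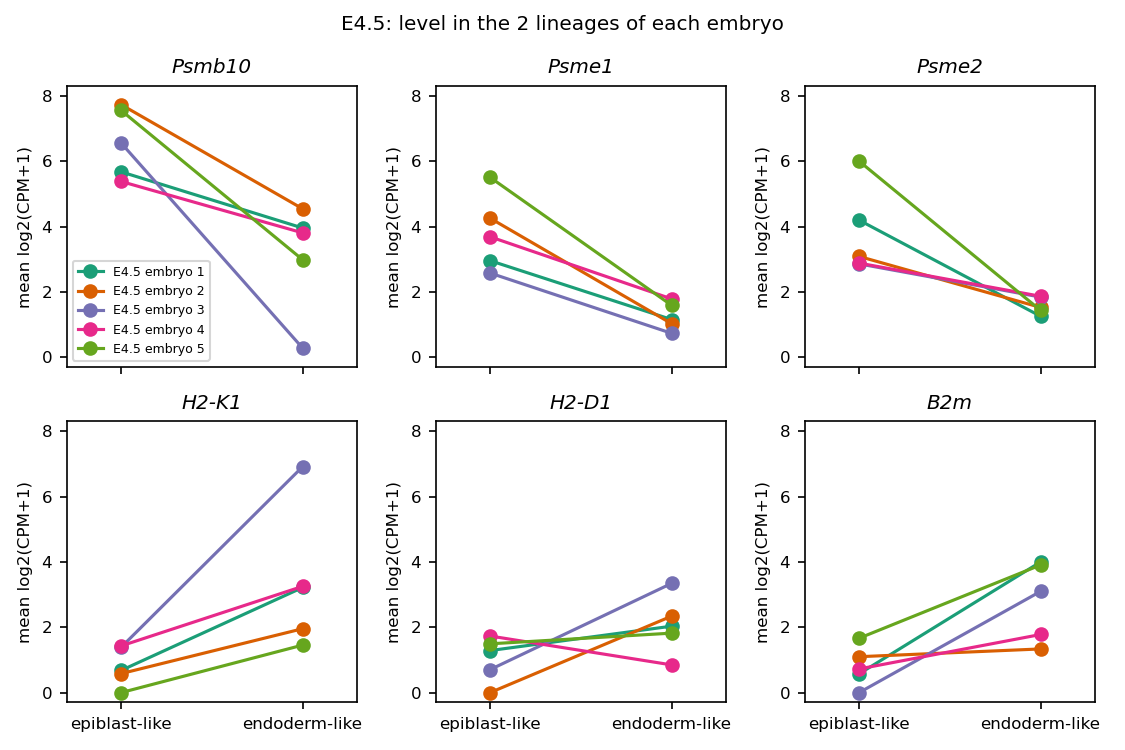
Mean log2(CPM + 1) over cells for both lineages of each E4.5 embryo (vertical axis), with a line joining the pair of values of 1 embryo. The lines of Psmb10, Psme1 and Psme2 fall in 5 of 5 embryos, those of H2-K1 and B2m rise in 5 of 5 (B2m in embryo 2 by 0.24, where its summed CPM is lower in endoderm-like cells), and that of H2-D1 falls in embryo 4.

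From E4.5 to E5.5 the epiblast-like cells could be compared with 1 embryo at E5.5. There the means were 4.21 for Psmb8, 8.63 for Psmb10, 5.97 for Psme1, 8.73 for Psme2, 3.21 for H2-K1, 3.06 for H2-D1, 1.03 for B2m, 0.78 for Psmb9 and 0.32 for Tap1. The differences from the mean of the E4.5 epiblast-like cells were 4.92 for Psme2 (SD over E4.5 embryos 1.35), 2.39 for H2-K1 (SD 0.60), 2.18 for Psme1 (SD 1.155), 2.05 for Psmb10 (SD 1.07), 2.01 for H2-D1 (SD 0.70) and 0.21 for B2m (SD 0.62). Of the 9 genes, 7 lay above every E4.5 embryo and B2m and Psmb9 did not, where 9.75% of 12241 genes did so and 24.3% lay under every one. By summed CPM the same 7 lay above, against 21.2% of genes. Nothing is read from this count, since stage and lineage were used to choose the genes. In the 8 endoderm-like cells at E5.5, Psmb10 stood at 1.23, Psme1 at 2.67, Psme2 at 4.22, H2-K1 at 2.54 and H2-D1 at 0.81, and Psmb8, Psmb9, Tap1 and B2m were at 0. All 9 means were below those of the epiblast-like cells of that embryo, in cells whose position in the numbering also differed, although the summed level of H2-K1 was higher in them (77.6 against 52.5 CPM).

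At E6.5 the lineages could be set side by side only within an embryo, since mesoderm-like cells came from embryo 2 alone and all but 2 endoderm-like cells from embryo 1. In embryo 1 the endoderm-like and unnamed cells had means of 7.17 and 7.62 for Psmb10, 4.86 and 5.48 for Psme1, 4.20 and 4.44 for H2-K1, 3.11 and 2.59 for H2-D1, and 4.92 and 3.49 for B2m. In embryo 2 the mesoderm-like and unnamed cells had means of 6.47 and 6.82 for Psmb10, 5.61 and 5.58 for Psme1, 3.44 and 3.58 for H2-K1, 3.90 and 2.26 for H2-D1, and 5.18 and 3.39 for B2m. The unnamed cells held the 9 cells led by Gm10800, 4 in embryo 1 and 5 in embryo 2, with H2-D1 read in 0 of them and B2m in 2. Without these, H2-D1 in the unnamed cells was 3.13 in embryo 1 and 2.93 in embryo 2, and B2m was 4.23 and 3.96, so H2-D1 in embryo 1 was level with the endoderm-like cells. Psmb10 was then 8.20 and 7.59, Psme1 6.39 and 6.19, and H2-K1 5.15 and 4.63. The unnamed cells thus lay above the endoderm-like or mesoderm-like cells by a wider margin for these genes, Psme1 in embryo 2 having been slightly below. In embryo 2 lineage and position in the numbering cannot be told apart. A second method, Ward clustering on the markers alone, gave 25 epiblast-like cells. All of them were among the 45 unnamed cells, of which it named another 11 endoderm-like, so the unnamed cells are a mixture. Over the 25 epiblast-like cells, pooled from both embryos, Psmb8 was at 1.82, Psmb10 at 7.97, Psme1 at 6.40, Psme2 at 6.70, H2-K1 at 5.0 and B2m at 3.97.

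Partner genes were next counted in the same cell. Reads of both Psme1 and Psme2 were found in 16 of 25 epiblast-like and 12 of 50 endoderm-like cells at E4.5. At E5.5 they were found in 90.2% of epiblast-like cells (46 of 51) and 37.5% of endoderm-like cells, and at E6.5 in 95.2% of cells (79 of 83). Reads of B2m together with H2-K1 or H2-D1 were found in 12% of epiblast-like and 46% of endoderm-like cells at E4.5. At E5.5, 12 of 51 epiblast-like cells held both, 28 held a heavy chain without B2m, and 0 held B2m alone. At E6.5, 68 of 83 cells held both. The median number of the 9 genes read per cell was 3, 5 and 6 in order of stage. Cells of the stages differ in depth and in the number of genes detected (medians 6985, 5242 and 9304), so these shares carry both too.

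**Figure D5:**
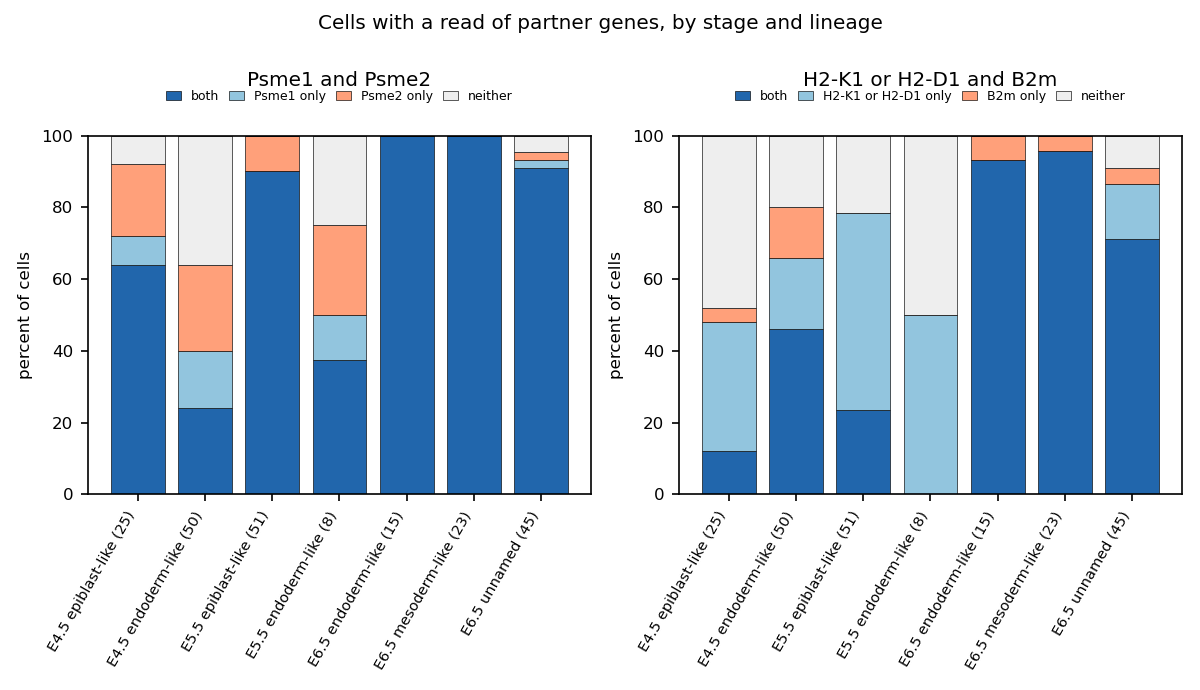
Percent of cells (vertical axis) in each stage and lineage group (number of cells in brackets) that held reads of both partner genes, of 1 or of neither, for Psme1 with Psme2 on the left and for a heavy chain (H2-K1 or H2-D1) with B2m on the right. Both PA28 genes were read in 90.2% of epiblast-like cells at E5.5, where a heavy chain was read without B2m in 28 of 51.

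The wider pathway was tested on 118 genes in 7 lists that hold none of the 9. In the E4.5 comparison of lineages, which clustering of the same cells defined without these genes, 64 of the 118 passed the filter on low counts, 3 were called higher in endoderm-like cells and 16 lower by edgeR at an adjusted p under 0.05, where 6.43% of the 9437 genes tested were called higher and 5.63% lower, and the median log2 fold change was -0.49, against 0.14 over all genes. Of 16 core and assembly genes tested, 5 were lower, and the log2 fold change was under 0 for 16 of 16, with Psmg4, a chaperone of core assembly, at -1.42 (SE 0.35), Psma5 at -1.05 (SE 0.23), Psma3 at -0.98 (SE 0.25) and Psma6 at -0.81 (SE 0.23), with edgeR adjusted p = 0.0187, 0.0113, 0.0235 and 0.0389. Of the constitutive catalytic subunits Psmb7 was lower (-1.05, SE 0.29, edgeR adjusted p = 0.0315), and Psmb6 (-0.67, edgeR adjusted p = 0.0605) and Psmb5 (-0.10, edgeR adjusted p = 0.830) did not pass.

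Among 21 caps and inhibitors, 3 were lower. Psme4, which encodes the PA200 activator, had 293 to 601 CPM in epiblast-like cells and 19.3 to 67.5 CPM in endoderm-like cells of the 5 embryos, without overlap (log2 fold change -3.43, SE 0.31, edgeR adjusted p = 6.6e-05). The others were the ATPases of the base Psmc2 (-0.97, SE 0.27, edgeR adjusted p = 0.0339) and Psmc1 (-0.81, SE 0.24, edgeR adjusted p = 0.0438).

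Among 4 peptide loading genes tested, the chaperones Calr and Pdia3 were higher in endoderm-like cells. Calr had 279 to 339 CPM in epiblast-like and 694 to 1459 CPM in endoderm-like cells (log2 fold change 1.48, SE 0.22, edgeR adjusted p = 0.0012), and Pdia3 rose by less (0.81, SE 0.22, edgeR adjusted p = 0.0333). Both also serve the folding of many other proteins. Tapbp, the tapasin that bridges class I to the transporter, did not pass (-2.09, SE 0.87, edgeR adjusted p = 0.145). Tap2 was at 0 in both lineages. Nlrc5, the main activator of class I promoters, was at 0 in 5 of 5 embryos in epiblast-like cells and at no more than 0.840 CPM in endoderm-like cells, and was not tested.

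Among 12 regulators tested, 1 was higher in endoderm-like cells, Ifngr1, a chain of the interferon gamma receptor, at 0 to 1.72 CPM in epiblast-like and 8.64 to 46.4 CPM in endoderm-like cells (log2 fold change 5.61, SE 1.22, edgeR adjusted p = 0.0103). Of 25 interferon-stimulated genes 7 were tested, and 6 of these were lower in endoderm-like cells. Some, Irgm1 among them, passed the filter on low counts only through the epiblast-like cells where they are high, so nothing is read from this count. Ddx58, the RNA sensor RIG-I, had 87.3 to 248 CPM in epiblast-like cells and 0.662 to 7.44 CPM in endoderm-like cells (-5.27, SE 0.58, edgeR adjusted p = 0.00014). Ifitm1 (29.3 to 136 CPM against 0 to 2.31 CPM) and Ifitm3 (12.3 to 143 CPM against 0 to 5.72 CPM), of a family of antiviral membrane proteins, had edgeR adjusted p = 0.0012 and 0.0100. Irgm1, an interferon-inducible GTPase, was at 0 in all endoderm-like cells and at least 461-fold higher in epiblast-like cells at 23.1 CPM (limit of 3 counts over the group). Of 17 other class I genes only H2-M5 was tested, which was likewise at 0 in endoderm-like cells and at least 1247-fold higher in epiblast-like cells at 62.6 CPM. It passed the filter only through the epiblast-like cells, so its call could fall on that side alone. Several of the interferon-stimulated genes, Ifitm1, Ifitm2 and Ifitm3 among them, are known to be expressed in pluripotent cells without interferon. Leaving out 1 embryo brought the genes called lower from 16 to 11 (embryo 1 or 2), 10 (embryo 5), 9 (embryo 4) or 8 (embryo 3). The calls of Psmg4, Psma3, Psma6, Psmb7, Psmc1, Psmc2 and Pdia3 were each lost when 1 of several embryos was left out, those of Psma6 and Psmc2 whichever it was, and Psma3, Psmb7 and Pdia3 also lost theirs without the embryo block and Psmc1 without the filter. The calls of Psme4, Ddx58, H2-M5, Ifitm1, Ifitm3, Irgm1, Calr, Ifngr1 and Psma5 held in each alternative that gave a value.

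Between E6.5 and E4.5, over all kept cells, 110 of the 118 genes were tested, 7 were higher and 2 lower, where 3.95% of all genes tested were called higher and 2.61% lower, and the median log2 fold change was 0.40 against 0.07 over all genes. The makeup of the cells differed between these stages. The 9 calls fell in 4 of the 7 lists. Of 21 caps and inhibitors, Psmd1, a scaffold of the 19S cap, was higher (1.02, SE 0.29, edgeR adjusted p = 0.0487). Of 15 other class I genes, H2-T23, which encodes Qa-1, was higher, with 0.0283 to 0.5261 CPM at E4.5 and 3.43 and 13.4 CPM at E6.5 (5.65, SE 1.55, edgeR adjusted p = 0.0404). H2-Q6 was at 0 in all E4.5 embryos and at 1.78 and 4.18 CPM at E6.5 (edgeR adjusted p = 0.0424), its reads being hard to tell from those of its close H2-Q paralogs, and H2-M5 was lower, with 5.55 to 41.4 CPM against 0.0474 and 0.159 CPM (edgeR adjusted p = 0.0023).

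Of 24 regulators tested, Rfxap and Irf2 were higher at E6.5. Rfxap, part of the complex that binds the X box of MHC promoters, had 1.72 to 3.85 CPM at E4.5 and 18.7 and 22.2 CPM at E6.5 (3.12, SE 0.83, edgeR adjusted p = 0.0362). Irf2, an interferon regulatory factor, was at 0 in all E4.5 embryos and at 1.55 and 11.6 CPM at E6.5 (edgeR adjusted p = 0.0233). Irf1, which activates the promoters of class I and inducible proteasome genes, had 0 to 11.7 CPM at E4.5, 19.9 CPM at E5.5 and 19.3 and 29.5 CPM at E6.5 and did not pass (2.92, SE 1.397, edgeR adjusted p = 0.230), nor did Tapbp (0.78, edgeR adjusted p = 0.621) or Nlrc5 (-0.19, SE 2.72, edgeR adjusted p = 0.980). At E5.5 Irf1 was at 23.9 CPM in epiblast-like and 0 in endoderm-like cells, in 1 embryo and without a test. Of 22 interferon-stimulated genes, Bst2 (2.02, SE 0.51, edgeR adjusted p = 0.0285) and Ifit2 (0 at E4.5, 1.22 and 7.06 CPM at E6.5, edgeR adjusted p = 0.0321) were higher and Ddx58 was lower (-3.70, SE 0.67, edgeR adjusted p = 0.0039). The number of genes of the lists called higher was 0 without E6.5 embryo 1, 3 without E6.5 embryo 2, 3 without E4.5 embryo 1 or 3, and 4 without E4.5 embryo 4 or 5. Of the 9 calls only that of H2-M5 held in each alternative that gave a value. Ddx58 lost its call without E6.5 embryo 1, and Irf2, Bst2, Ifit2, Rfxap, H2-T23, H2-Q6 and Psmd1 lost theirs when either E6.5 embryo was left out. The call of Psmd1 was lost in 11 of 14 alternatives, among them limma and leaving out any embryo.

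In the epiblast-like comparison of E5.5 with E4.5, 90 of the 118 genes were tested, none was called higher by edgeR (10 at an unadjusted p under 0.05, 1 by DESeq2 and 0 by limma) and H2-M5 was lower, with 30.4 to 78.9 CPM at E4.5 and 0 at E5.5 (edgeR adjusted p = 0.0056), on the assumption that the single E5.5 embryo varies like those of E4.5. Over all genes 0.0408% were called higher and 0.319% lower. With marker clustering, 99 were tested between epiblast-like cells at E6.5 and E4.5, where 1.58% of all genes were called higher and 1.66% lower. Bst2 was higher (1.89, SE 0.48, edgeR adjusted p = 0.0491), and Psme4 (-1.78, SE 0.39, edgeR adjusted p = 0.0215), Ddx58 (-6.54, SE 1.01, edgeR adjusted p = 0.0024) and H2-M5 (edgeR adjusted p = 0.0025) were lower. The call of Bst2 was lost in 11 of 14 alternatives, limma among them, and that of Psme4 when either E6.5 embryo was left out. In endoderm-like cells 96 were tested and none was called by edgeR (7 higher and 2 lower at an unadjusted p under 0.05, 1 and 2 by DESeq2, 2 and 0 by limma), where 0.751% of all genes were called higher and 0.498% lower, in a fit that rests on 1 E6.5 embryo.

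The pattern of the 9 genes over the 16 embryo and lineage groups was set against all 7982 genes with a mean of at least 10 CPM. Likeness was Pearson's r between a gene's log2(CPM + 1) of summed counts and the mean standardised profile of the 9. The groups share embryos and libraries, so r is a description. The 5 genes outside the 9 most like their mean were Tcp11l1 (r = 0.783), the de novo DNA methyltransferase Dnmt3b (0.782), Tmem54 (0.775), the pro-apoptotic Bid (0.765) and the growth factor Mdk (0.758). The 9 are part of that mean, which raises their own r, and Psmb9 and Tap1 had under 10 CPM and no r. Psmb8 had 0.951, Psme2 0.747, Psme1 0.631, H2-D1 0.572, Psmb10 0.5684, B2m 0.3996 and H2-K1 0.382. Between pairs of the 9, r was 0.838 for Psme1 and Psme2, 0.735 for Psmb10 and Psme1, 0.598 for H2-K1 and H2-D1, and -0.38 for Psmb10 and H2-K1.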

How the data were processed

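Counts per Ensembl gene were used as deposited by the authors, who made them from Smart-seq2 reads trimmed with Trim Galore 0.4.2, aligned to GRCm38 with HISAT2 2.1.0 and counted with featureCounts, with neither normalization nor molecular identifiers; the annotation behind the counts is not given in the sources used here. The count table held 264 cells and 22084 genes, of which 21907 were matched to symbols. The other tools in the submitters' notes, Bismark 0.19.0 among them, concern the bisulfite libraries, which were not analysed here.

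The 9 genes and the gene lists were chosen with earlier results of these data known. Cells with at least 50000 counts and 2000 genes were kept. Lineages were set by Leiden clustering (scanpy 1.11.5, resolution 0.5, 2000 variable genes, 20 principal components, 15 neighbours) at E4.5 and E6.5, without the 9 genes and the genes of the pathway lists, and at E5.5 by a marker gate at 10 CPM. Clustering named no E6.5 group epiblast-like, so the planned comparison of those cells could not be fitted. A comparison by Ward clustering on markers and one of all kept cells stand in for it, both added after the data were seen. Names rebuilt in this way may differ from those of the study.

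Counts were summed per embryo and lineage over groups of at least 3 cells and tested with edgeR 4.0.16 (quasi-likelihood, filterByExpr, TMM, Benjamini-Hochberg adjustment over all genes tested, threshold 0.05), with embryo as a block between lineages. The 9 were in the fits, and tests are reported only for genes outside them. DESeq2 1.42.0, limma 3.58.1 on means per cell, no filter, Ward lineages and leaving out each embryo were alternatives. The E6.5 embryos numbered 1 and 2 share only a number with those of E4.5: deviations of same-numbered embryos correlated at -0.04 and 0.03 over 11775 genes. Named genes were the 9, Psmb5, Psmb6, Psmb7, Tap2, Tapbp, Nlrc5 and Irf1, the 4 largest changes past the threshold per list and comparison, and the 5 genes with the highest likeness; 1 further gene of that rule is not reported here. Irf1 by lineage at E5.5, Psme2b and the marker genes were named after their values were seen. Fold changes against a group at 0 are bounds from 3 counts over the group. Nothing in the labels ties same-stage embryos to 1 litter or several, so p-values measure the spread between these embryos. Scripts were tested on simulated counts.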

Additional observations from a re-analysis of the deposited data

Results flagged for a closer look

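Psmb9 in the epiblast-like cells of E4.5 embryo 2 had a mean level of 1.57, far from the other 4 embryos, which lay between 0 and 0.19; chance flags about 1 in 20 such groups, and 1 of 23 examined was flagged. The lineage difference of H2-K1 (endoderm-like minus epiblast-like, mean log2(CPM + 1)) was 1.37 to 5.53 in the E4.5 embryos and -0.67 in the E5.5 embryo, although by summed CPM it was higher in endoderm-like cells at E5.5 too (77.6 against 52.5 CPM). With marker clustering it was -0.74 at E6.5. That of B2m was 0.24 to 3.42 in the E4.5 embryos and -1.03 at E5.5, and by summed CPM E4.5 embryo 2 too was lower in endoderm-like cells (2.29 against 4.87 CPM). These differences between stages were not tested, and at E5.5 lineage and position in the numbering of cells cannot be told apart.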

How the results depend on the processing

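For endoderm-like against epiblast-like cells at E4.5, 607 genes were called higher and 531 lower (508 and 490 without the embryo block), DESeq2 called 1462 and 981 and limma 1249 and 861, and leaving out 1 embryo gave 333 to 486 and 351 to 414, the fewest without embryo 3. For epiblast-like cells between E5.5 and E4.5 (5 and 39), DESeq2 called 25 and 384, limma 20 and 164, Ward lineages 18 higher and no filter 11 higher, and leaving out 1 embryo gave 1 to 13 and 14 to 42. For endoderm-like cells between E6.5 and E4.5 (101 and 67), DESeq2 called 304 lower, limma 215 higher and Ward lineages 401 and 286, with 83 to 118 and 55 to 75 when 1 embryo was left out. For epiblast-like cells by marker clustering (207 and 218), DESeq2 called 430 and 736, no filter 619 and 427 and limma 580 higher, with 42 (without E6.5 embryo 1) to 209 and 96 to 222. For all kept cells (607 and 401), DESeq2 called 1027 lower, no filter 1043 and 649 and limma 1242 higher, with 213 (without E6.5 embryo 2) to 582 and 150 to 402. With the replicate number as a block, all kept cells gave 351 higher and 446 lower and marker clustering 171 and 272; the numbers do not pair these embryos, and no block could be made for endoderm-like cells.

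On log2 scales, directions of the 9 genes' differences held in the alternatives run apart from those of 2 genes between E6.5 and E4.5. Tap1 was 0.25, -0.11 without E6.5 embryo 1 and 0.61 without embryo 2, and Psmb9 was -0.25 and 0.06 without E4.5 embryo 2. By plain means of summed CPM over embryos, B2m in epiblast-like cells was 8.62 at E5.5 against 10.005 at E4.5, and Psmb9 at E4.5 was 2.85 in endoderm-like against 4.90 in epiblast-like cells, both opposite to their mean log2 differences. Of the named genes, the log2 fold change of Psmb5 between E4.5 lineages (-0.10) was 0.14 with limma and -0.25 to 0.028 (without embryo 3) when 1 embryo was left out. Between E6.5 and E4.5, Psmb5 (0.18) was -0.11 with limma and -0.021 with the block, Psmb6 (0.30) was -0.016 with limma, and Nlrc5 (-0.19) was -4.65 to 4.68 when 1 embryo was left out. None of these had passed the threshold. The cause was not tested. Of the remaining checks on named genes 421 kept their side of the threshold, 85 lost it (the genes are named beside their calls above) and 8 gained it. The single E5.5 embryo, the E6.5 pair and the low counts of Psmb9 and Tap1 limit what could be detected.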
